A study of Mus musculus with 162 samples.

Results

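RNA of 42 single mouse embryonic neurons was compared between the submitters' labels MGE-derived 1 (18 cells) and MGE-derived 2 (24 cells). The members are all cells of either label that passed the submitters' quality control, 42 of 148 passed cells and of 162 cells in all. MGE was taken to stand for the medial ganglionic eminence, which the labels do not spell out. MGE-derived 1 held 11 cells of the Htr3a Cre line and 7 of the Lhx6 Cre line, and MGE-derived 2 held 17 cells of the Htr3a line and 7 of the Lhx6 line. All were of ages E17.5-E18.5. In such lines the promoter of the named gene drives Cre and so sets which cells can be picked. Each library was made from what a patch-clamp pipette took up from 1 neuron, meant to be its cytosol. Markers of microglia or of glutamatergic neurons in some of these libraries are given beside the results. The labels tie no cell to an animal, litter or culture. Each type label therefore counts as 1 sample, cells are not replicates, and no p-value or standard error was computed for any difference. The driver line, the animals and any batch cannot be told apart.

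The medial ganglionic eminence is a transient swelling of the ventral forebrain whose progenitors make most somatostatin and parvalbumin interneurons of the cortex. Its neurons leave under the LIM-homeodomain factor Lhx6, migrate tangentially into the cortical plate, and then depend on Sox6 and Satb1, which act downstream of Lhx6, for their final position, maturation and survival. Interneurons of the caudal ganglionic eminence, the other large source, commonly express the serotonin receptor gene Htr3a.

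The 18 MGE-derived 1 cells held 1710224 to 16920377 counts and the 24 MGE-derived 2 cells 4415109 to 19310050. Levels are given as CPM, counts scaled to a common total per cell. A difference is the mean over cells of log2(CPM + 1) in MGE-derived 1 minus that in MGE-derived 2, which understates the change of low genes. Where counts of a label are summed first, the value is called a summed CPM. For genes with no count in many cells, the difference can be much larger than that by summed counts. For Satb1 the difference was -3.12, against -0.53 by summed counts. Exact Poisson intervals (95%) of summed CPM and exact Clopper-Pearson intervals (95%) of shares of cells cover counting error only, and without molecular identifiers reads are not independent molecules. How the submitters assigned the type labels is not given in the sources used here. If they used these same levels, a difference in a gene that served the assignment is a description and not independent evidence.

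Lhx6 was counted in 18 of 18 MGE-derived 1 cells and 24 of 24 MGE-derived 2 cells, so both labels held the defining gene of the lineage. With the Htr3a line alone, Lhx6 ran from 16.2 to 1484 CPM (median 463) in MGE-derived 1 cells and from 9.35 to 1978 CPM (median 357) in MGE-derived 2 cells. In cells of the Lhx6 line it ran from 243 to 5066 CPM (median 1741) in MGE-derived 1 cells and from 469 to 2049 CPM (median 1268) in MGE-derived 2 cells. The ranges overlapped in both lines, and the differences were -0.03 among Htr3a-line cells and 0.34 among Lhx6-line cells. The summed level of 8 MGE interneuron markers had medians of 4163 CPM in MGE-derived 1 cells and 3739 CPM in MGE-derived 2 cells of the Htr3a line, and 8008 CPM and 5722 CPM in those of the Lhx6 line. Htr3a itself was counted in 4 of 11 MGE-derived 1 cells (highest 930 CPM) and 6 of 17 MGE-derived 2 cells (highest 226 CPM) of the line named for it. It had no count in the Lhx6 line, where 3 counts over the group would be 0.0651 CPM in MGE-derived 1 and 0.0648 CPM in MGE-derived 2.

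Over both lines with all cells, Sox6 was the gene with the lowest difference of the 10318 genes tested, and Fbxo3 the gene with the highest. By line, Sox6 was the lowest among Htr3a-line cells and ranked 8 from the lowest among Lhx6-line cells, and Fbxo3 ranked 5 from the highest among Htr3a-line cells and was the highest among Lhx6-line cells. Sox6 encodes a SoxD transcription factor that MGE interneurons need for migration and maturation. Fbxo3 encodes an F-box protein, the part of an SCF ubiquitin ligase that selects the substrate. Both genes, and Satb1, were named as markers of this split with earlier results of these data known.

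Sox6 (ENSMUSG00000051910, GRCm38 chr7:115470872-116038796, minus strand) had a count in 3 of 11 MGE-derived 1 cells of the Htr3a line, with a lowest and median value of 0 and a highest of 757 CPM, against 17 of 17 MGE-derived 2 cells, with 1.35, 166 and 421 CPM. In the 14 cells of the Lhx6 line it had a count in 4 of 7 MGE-derived 1 cells, with 0, 0.138 and 47.7 CPM, against 7 of 7 MGE-derived 2 cells, with 56.4, 122 and 369 CPM. In Lhx6-line cells every MGE-derived 1 cell was below every MGE-derived 2 cell. In Htr3a-line cells 9 of 11 MGE-derived 1 cells were below the lowest MGE-derived 2 cell. The other two had 757 and 10.5 CPM. The mean of log2(CPM + 1) was 1.24 ± 2.61 in MGE-derived 1 and 6.79 ± 1.69 in MGE-derived 2 (SD over 18 and 24 cells), a difference of -5.55 over both lines, -5.47 among Htr3a-line cells and -5.75 among Lhx6-line cells. A single cell, MGE-derived 1 Htr3a line cell 4, carried most Sox6 counts of its label. Summed Sox6 was 37.0 CPM (36.1 to 38.0) in MGE-derived 1 with that cell and 3.12 CPM without it, against 174 CPM (172 to 175) in MGE-derived 2.

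Fbxo3 (ENSMUSG00000027180, chr2:104027721-104063240, plus strand) showed the reverse order, with a spread that differed between the lines. Among Htr3a-line cells it had a count in 10 of 11 MGE-derived 1 cells, with a lowest, median and highest value of 0, 173 and 1046 CPM, against 12 of 17 MGE-derived 2 cells, with 0, 6.42 and 234 CPM. Among Lhx6-line cells it had a count in 7 of 7 MGE-derived 1 cells, with 132, 336 and 996 CPM, against 1 of 7 MGE-derived 2 cells, with 0, 0 and 0.220 CPM. The labels did not overlap in the Lhx6 line, where the 7 MGE-derived 2 cells together held 1 Fbxo3 count. They did overlap in the Htr3a line. Summed Fbxo3 in the Lhx6 line was 399 CPM (393 to 405) in MGE-derived 1 and 0.0216 CPM (0.000547 to 0.120) in MGE-derived 2. With the Htr3a line alone, it was 265 CPM (262 to 268) in MGE-derived 1 and 38.5 CPM (37.6 to 39.4) in MGE-derived 2. The mean of log2(CPM + 1) was 7.14 ± 2.80 in MGE-derived 1 and 2.32 ± 2.74 in MGE-derived 2 (SD over 18 and 24 cells). The difference was 4.82 over both lines, 3.08 among Htr3a-line cells and 8.36 among Lhx6-line cells.

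Shares of cells gave the same picture as levels. Sox6 had a count in 7 of 18 MGE-derived 1 cells (interval 17.3% to 64.3%) and 24 of 24 MGE-derived 2 cells (85.8% to 100%). Fbxo3 had a count in 17 of 18 MGE-derived 1 cells (72.7% to 99.9%) and 13 of 24 MGE-derived 2 cells (32.8% to 74.4%). After every cell was thinned at random to 1710224 counts, the lowest total of the 42, Sox6 was counted in 6 MGE-derived 1 cells and 24 MGE-derived 2 cells, and Fbxo3 in 17 and 12.

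**Figure D1:**
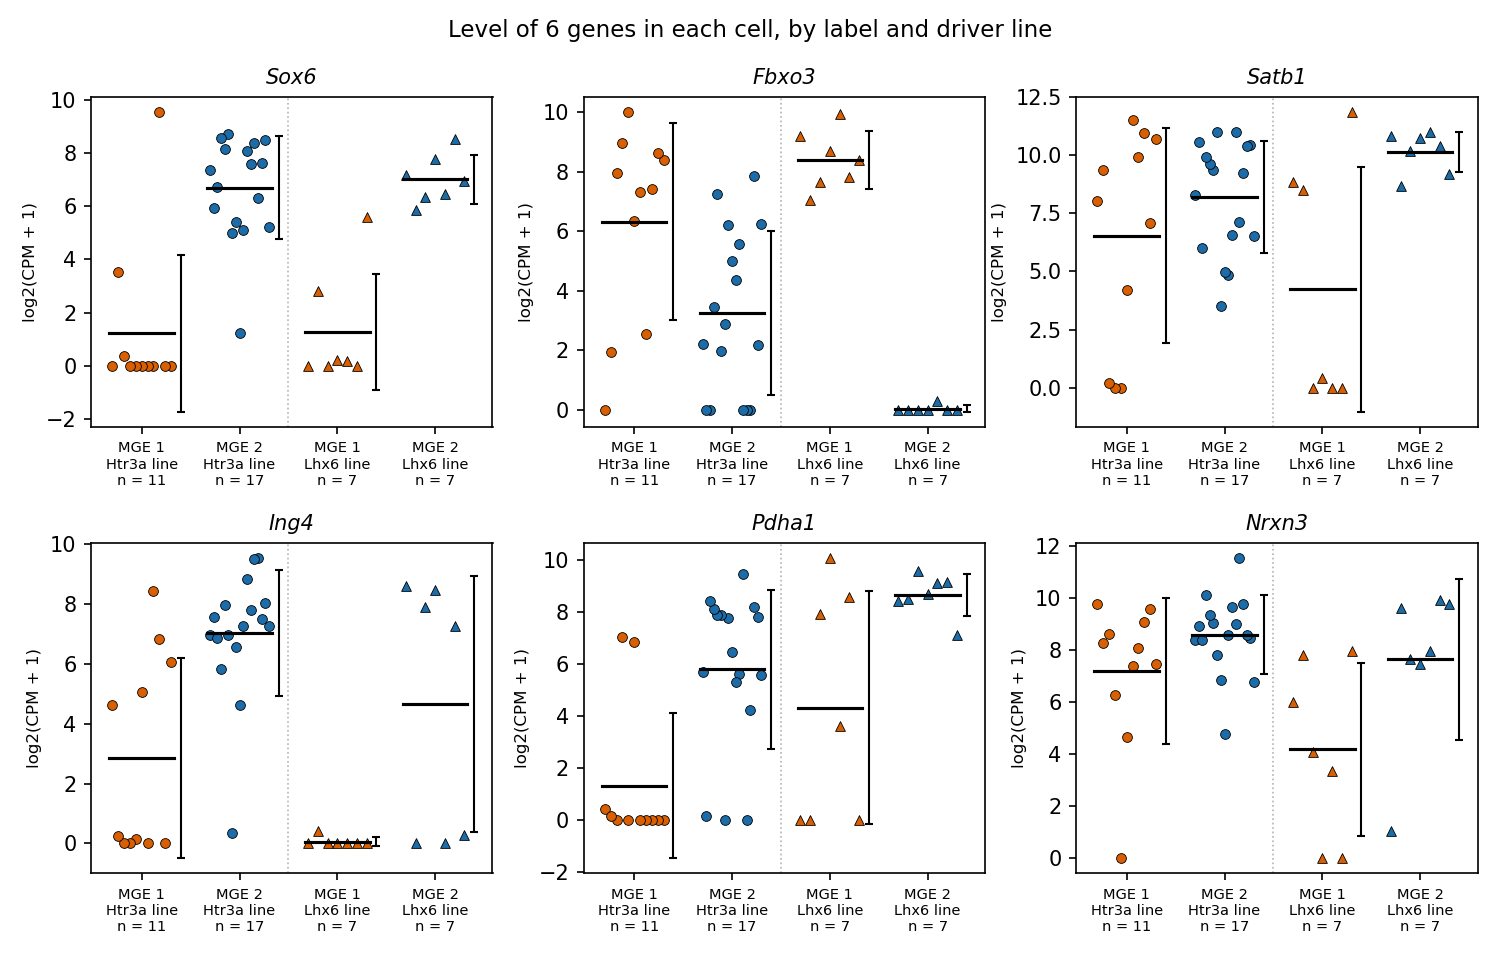
Each point is the level of a gene in 1 cell, as log2(CPM + 1), for Sox6, Fbxo3, Satb1, Ing4, Pdha1 and Nrxn3. In each panel MGE-derived 1 stands left of MGE-derived 2, first for the Htr3a line (circles; 11 and 17 cells) and then for the Lhx6 line (triangles; 7 and 7 cells), with the mean as a bar and the SD between cells as a whisker. Fbxo3 is at or near 0 in all 7 MGE-derived 2 cells of the Lhx6 line and spread from 0 to 234 CPM in those of the Htr3a line.

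Read in the same cells, Sox6 and Fbxo3 were largely exclusive in the Lhx6 line and less so in the Htr3a line. At a level of 10 CPM or more, 13 of 18 MGE-derived 1 cells held Fbxo3 alone, 1 held Sox6 alone, 2 held both and 2 held neither. Of 24 MGE-derived 2 cells, 1 held Fbxo3 alone, 16 held Sox6 alone, 7 held both and 0 held neither. In cells of the Lhx6 line 6 of 7 MGE-derived 1 cells held Fbxo3 alone and 1 held both, against 7 of 7 MGE-derived 2 cells with Sox6 alone.

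All 7 MGE-derived 2 cells with both genes were of the Htr3a line, where 9 of 17 held Sox6 alone. MGE-derived 1 Htr3a line cell 4, the cell of highest Sox6, also held 173 CPM of Fbxo3. MGE-derived 1 Lhx6 line cell 2 held 47.7 CPM of Sox6 and 336 CPM of Fbxo3. The 2 cells with neither gene, MGE-derived 1 Htr3a line cells 1 and 5, held 0 and 4.85 CPM of Fbxo3, and 106 and 463 CPM of Lhx6.

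Microglia transcripts were also held by some of these cells. At least 3 of 8 microglia markers at 10 or more counts were held by 1 of 11 MGE-derived 1 cells and 5 of 17 MGE-derived 2 cells of the Htr3a line, and by 0 of 7 and 0 of 7 cells of the Lhx6 line. The summed level of the 8 markers ran from 0 to 12052 CPM (median 0) in MGE-derived 1 cells and from 0 to 12310 CPM (median 3.16) in MGE-derived 2 cells of the Htr3a line. In the 14 cells of the Lhx6 line its highest value was 8.59 CPM in MGE-derived 1 cells and 0.522 CPM in MGE-derived 2 cells, and 4 and 5 of the 8 markers were at 0. Of the 8 MGE-derived 2 cells of the Htr3a line with at least 10 CPM of Fbxo3, 4 held at least 3 microglia markers. Those with most Fbxo3, cells 4 and 14 (234 and 152 CPM), held 0 markers at 10 or more counts. Cell 13, with 4 markers, had 2.91 CPM of Fbxo3. Without the 6 cells that held at least 3 markers the Fbxo3 difference was 3.71 in the Htr3a line and 5.51 over both lines.

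**Figure D2:**
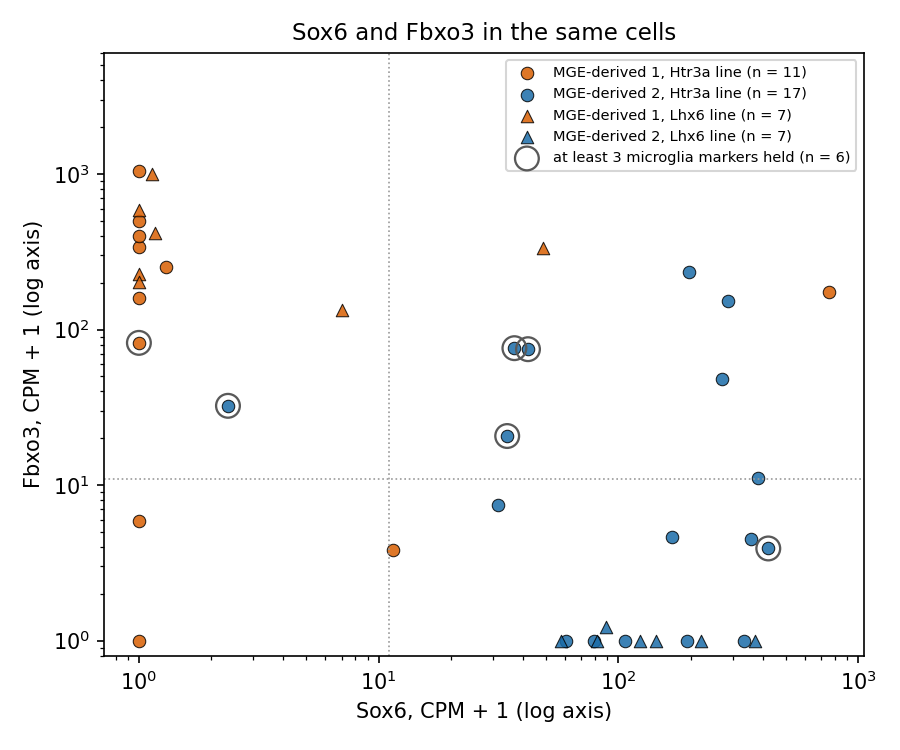
Sox6 against Fbxo3 in each of the 42 cells, both as CPM + 1 on log axes, with dotted lines at 10 CPM and rings around the 6 cells that held at least 3 microglia markers. MGE-derived 1 cells (orange) lie mostly at upper left and MGE-derived 2 cells (blue) at right, with 7 MGE-derived 2 cells of the Htr3a line at or above 10 CPM of both genes.

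Among the 9 type labels of the series, which differ in their lines and cell numbers, MGE-derived 2 had the highest summed Sox6, at 174 CPM. The other eight labels ran from 0.00680 CPM in Glutamatergic 1 (33 cells) to 57.1 CPM in Cajal Retzius (12 cells; 4.12 CPM without its highest cell). Summed Fbxo3 was 306 CPM in MGE-derived 1 and 30.5 CPM in MGE-derived 2, above and below the 48.4 to 175 CPM of the labels other than these. The highest of these, GABAergic (4 cells), had 45.3 CPM without its highest cell. By the median cell the order of Fbxo3 was different at the low end. The median of MGE-derived 2 was 1.57 CPM, against 0 CPM in Glutamatergic 1, 0.244 CPM in VZ-derived and 1.02 CPM in Undefined cells.

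Satb1 (chr17:51736187-51833290, minus strand), a chromatin organiser of interneuron maturation, was lower in MGE-derived 1 in the typical cell and less so in the sum. In Htr3a-line cells it had a count in 9 of 11 MGE-derived 1 cells, with a lowest, median and highest value of 0, 260 and 2858 CPM, against 17 of 17 MGE-derived 2 cells, with 10.3, 604 and 2050 CPM. In Lhx6-line cells it had a count in 4 of 7 MGE-derived 1 cells, with 0, 0.334 and 3716 CPM, against 7 of 7 MGE-derived 2 cells, with 408, 1346 and 2017 CPM. Both lines overlapped, and the cell of highest Satb1 in either label was an MGE-derived 1 cell of the Lhx6 line, cell 2. The difference was -3.12 over both lines, -1.66 among Htr3a-line cells and -5.90 among Lhx6-line cells. Summed Satb1 was 601 CPM in MGE-derived 1 (480 CPM without that cell) and 868 CPM in MGE-derived 2. Among Lhx6-line cells alone it was 570 CPM in MGE-derived 1 (135 CPM without that cell) and 1259 CPM in MGE-derived 2.

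The neurexins are presynaptic adhesion molecules whose splicing the series was made to follow. Nrxn3 (chr12:88722876-90334935, plus strand) had a lowest, median and highest value of 0, 272 and 876 CPM in MGE-derived 1 cells of the Htr3a line and 26.4, 381 and 2988 CPM in MGE-derived 2 cells. In cells of the Lhx6 line it had 0, 16.1 and 248 CPM in MGE-derived 1 cells and 1.04, 249 and 958 CPM in MGE-derived 2 cells. The ranges overlapped in each line, and the difference was -1.39 among Htr3a-line cells and -3.46 among Lhx6-line cells. Nrxn2 differed by -0.15 over both lines, with opposite signs among Htr3a-line cells (0.55) and Lhx6-line cells (-0.73). Its highest value in the Lhx6 line was 21.6 CPM in MGE-derived 1 cells and 598 CPM, in a single cell, in MGE-derived 2 cells.

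The labels differed in genes per cell in the Htr3a line and hardly in the Lhx6 line. Among Htr3a-line cells the number of genes with a count ran from 2707 to 10971 (median 4226) in MGE-derived 1 cells and from 2747 to 14810 (median 6494) in MGE-derived 2 cells. In the 14 cells of the Lhx6 line it ran from 2900 to 6458 (median 4741) in MGE-derived 1 cells and from 3675 to 5191 (median 4540) in MGE-derived 2 cells. After thinning to 1710224 counts the medians were 4089 in MGE-derived 1 and 5650 in MGE-derived 2 in the Htr3a line, and 4378 and 4289 in the Lhx6 line. The 6 cells with microglia markers were among those with most genes, from 8022 to 14810. Over the 42 cells the first principal component of log2(CPM + 1), with 11.9% of the variance, followed the number of genes per cell (Spearman 0.96, a description over cells that share libraries with the value).

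The median difference of all 10318 genes was -0.88 among Htr3a-line cells, 0.00 among Lhx6-line cells and -0.57 over both. To compare cells with like numbers of genes, MGE-derived 1 cells were paired 1 to 1 with MGE-derived 2 cells of the same line whose number of genes was within 0.25 on the log2 scale, and cells without such a partner were left out. This left 12 pairs, 7 among Htr3a-line cells and 5 among Lhx6-line cells. Their medians were 4655 genes in MGE-derived 1 and 4869.5 in MGE-derived 2. In these cells the median difference was -0.07 among Htr3a-line cells, 0.00 among Lhx6-line cells and -0.04 over both. The shift toward lower levels in the Htr3a line was therefore near 0 among cells of like gene number.

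Sox6, Fbxo3, Satb1 and Nrxn3 kept their direction in the matched cells, where Sox6 was again the lowest gene and several genes, among them Nprl2, were above Fbxo3. Sox6 differed by -6.37 there, by -6.75 among Htr3a-line cells and -5.83 among Lhx6-line cells. Fbxo3 differed by 4.32 in matched cells, by 1.47 among Htr3a-line cells and 8.30 among Lhx6-line cells. Its value in the Htr3a line was thus less than with all cells. In cells matched without those holding microglia markers, Fbxo3 differed by 1.70 among Htr3a-line cells. Satb1 differed by -3.85 and Nrxn3 by -3.47 in matched cells. Nrxn2 differed by -0.50 in them, again with opposite signs in the lines (0.50 and -1.89).

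The counts of genes past a difference of 1 were uneven between the directions in the Htr3a line with all cells, and less so in matched cells. With all cells, 322 genes (3.12%) were higher by at least 1 in MGE-derived 1 of the Htr3a line and 4646 (45%) were lower by at least 1. In Lhx6-line cells 2699 genes (26.2%) were higher and 2398 (23.2%) lower. Over both lines together 350 (3.39%) were higher and 3113 (30.2%) lower. In matched cells 2066 genes (20%) were higher and 2603 (25.2%) lower in MGE-derived 1 of the Htr3a line, and 3030 (29.4%) higher and 2924 (28.3%) lower in that of the Lhx6 line.

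**Figure D3:**
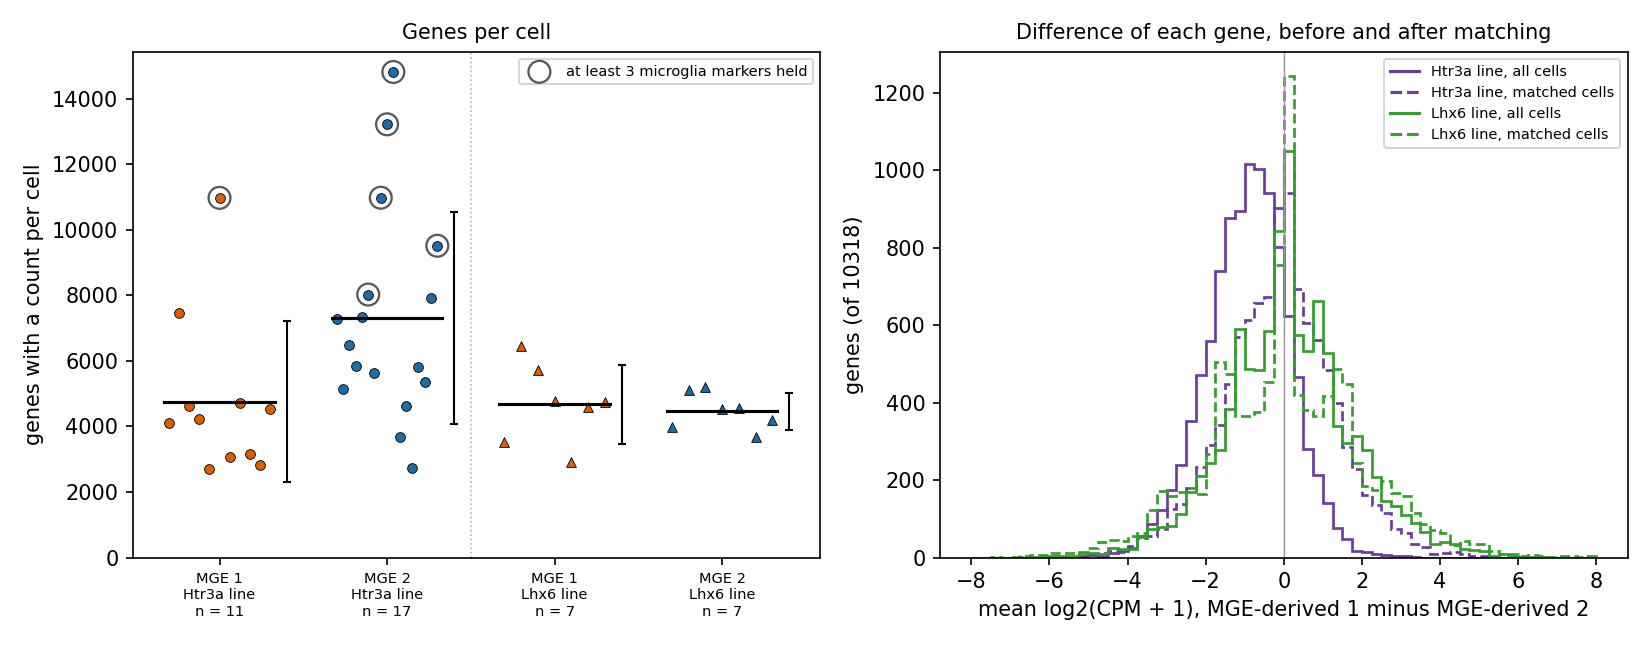
Left, the number of genes with a count in each cell, MGE-derived 1 left of MGE-derived 2 within each driver line, with mean, SD and rings around the 6 cells that held microglia markers. Right, the number of genes by their difference (MGE-derived 1 minus MGE-derived 2) in each line, with all cells (solid) and with matched cells (dashed). The curve of the Htr3a line, with a median of -0.88, moves to a median of -0.07 after matching, and that of the Lhx6 line stays at 0.00.

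Across genes, the difference between the labels in the Htr3a line hardly went with that in the Lhx6 line. Pearson's r across the 10318 genes was -0.01 and Spearman's rho -0.02, and the sign was the same for 49.2% of the 9920 genes with a difference other than 0 in both. The lines share no cells, genes are not independent replicates, and these values describe the tables. In matched cells r was 0.02 and the share of equal signs 50.3%. Of the genes lower by at least 1 in the Htr3a line, 23.9% were also lower in the Lhx6 line, close to the 23.2% of all genes. Of those lower in the Lhx6 line 46.3% were also lower in the Htr3a line, close to the 45% of all genes. Of the genes higher in the Htr3a line 28.0% were also higher in the Lhx6 line (26.2% of all genes), and of those higher in the Lhx6 line 3.33% were also higher in the Htr3a line (3.12% of all genes).

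A gene was called where its difference was at least 1 over both lines and in each line apart. By this rule 84 genes (0.814%) were called higher in MGE-derived 1 and 1101 (10.7%) lower. In matched cells 672 genes (6.51%) were called higher and 800 (7.75%) lower. Of the 84 genes called higher with all cells 60 (71.4%) were also called in matched cells, where they made up 8.93% of the calls. Of the 1101 called lower 443 (40.2%) were also called in matched cells, where they made up 55.4% of the calls. The 24 matched cells are part of the 42, so these overlaps describe shared data.

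A difference can come with fewer cells holding a count, with a lower level in the cells that do, or with both. The median called-lower gene had a count in 38.9% of MGE-derived 1 cells and 66.7% of MGE-derived 2 cells. Of 968 such genes with at least 3 counting cells in each label, 507 (52.4%) differed by less than 1 among the cells with a count, against 5650 of 9171 (61.6%) of all tested genes. Called-higher genes had a median of 66.7% of MGE-derived 1 cells and 50% of MGE-derived 2 cells, and 16 of 83 (19.3%) differed by less than 1 among those with a count. Over all tested genes the medians were 38.9% of MGE-derived 1 cells and 54.2% of MGE-derived 2 cells. Sox6 differed in both respects, with -3.60 among the 7 and 24 cells that held it, and so did Fbxo3, with 3.28 among 17 and 13 cells. For Satb1 the value among 13 and 24 cells was -0.96.

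Only 18 genes differed by at least 3 in each line apart. Of these, 17 (0.165% of genes tested) were lower in MGE-derived 1 and 1 (0.00969%), Fbxo3, was higher. Taken singly, the Htr3a line had 337 genes lower and 5 higher by at least 3, and the Lhx6 line 323 lower and 457 higher. Whether more genes coincided than between unrelated lines was not tested, so this group cannot be called a shared core. In matched cells 29 genes were lower and 20 higher by at least 3 in each line. Apart from genes that the naming rule gives, the members of this group were chosen after their values were seen. Besides Sox6 they were Ing4, Pdha1, Cyfip1, Gm29609, Garnl3, Dimt1, Ppig, Zfp532, Nxph1, Ascc3, Rhbdl1, Serpini1, Map3k15, Shd, Ctcf and Ccni.

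**Figure D4:**
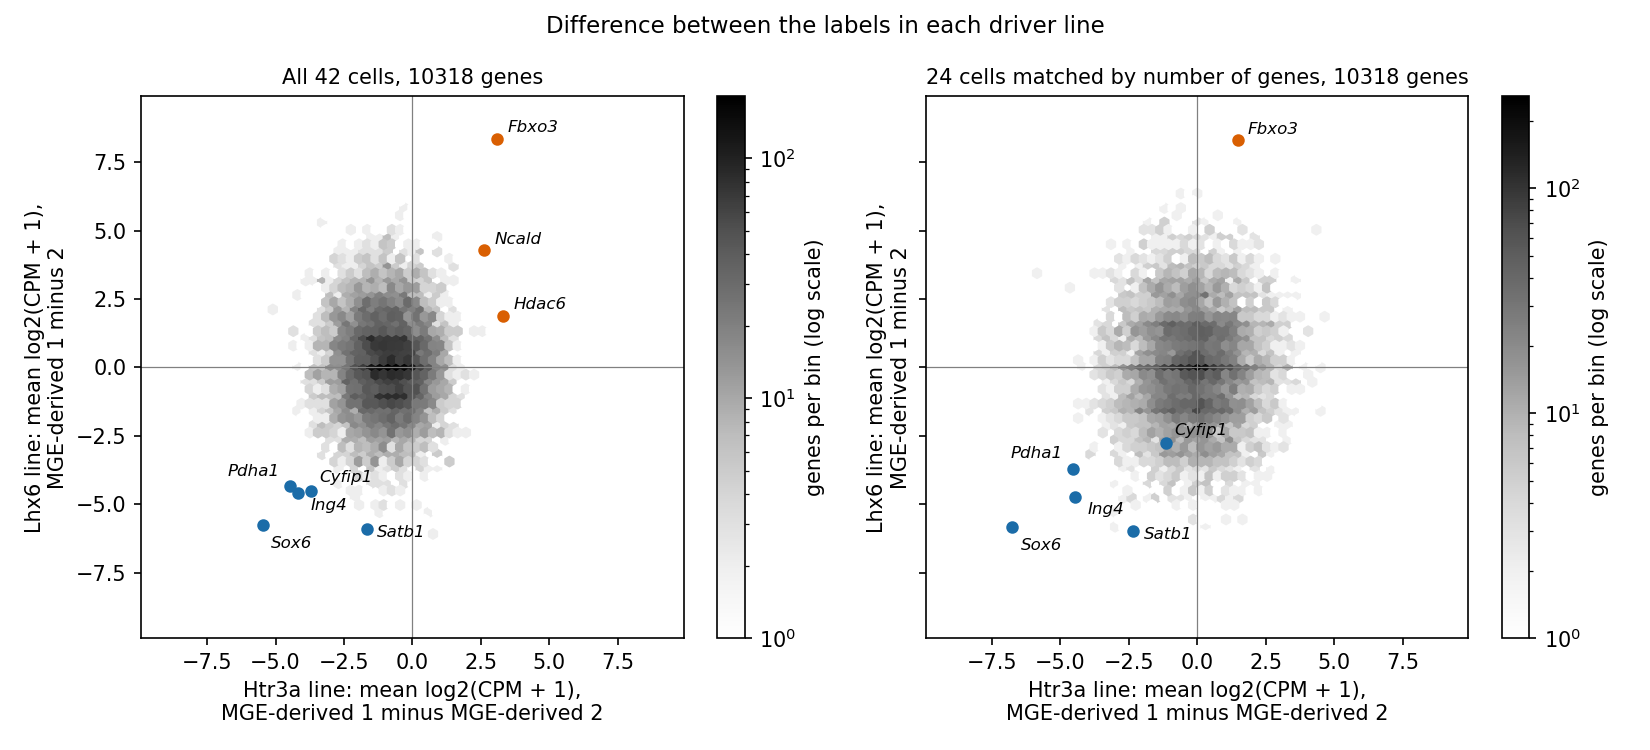
Density of the 10318 tested genes by their difference in the Htr3a line (x axis) and the Lhx6 line (y axis), MGE-derived 1 minus MGE-derived 2 in both, with all 42 cells (left) and the 24 matched cells (right). The cloud has no slope (Pearson's r -0.01 with all cells and 0.02 with matched cells). Sox6, Ing4 and Pdha1 lie at lower left and Fbxo3 at upper right in both panels. With matched cells they are not alone there, as 29 genes are lower and 20 higher by at least 3 in each line. Fbxo3 is at 1.47 in the Htr3a line in that panel.

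Ing4 (chr6:125039760-125049265, plus strand), a reader of methylated histone H3 in a histone acetyltransferase complex, was the second lowest gene over both lines. In cells of the Htr3a line it had a count in 7 of 11 MGE-derived 1 cells, with a lowest, median and highest value of 0, 0.183 and 347 CPM, against 17 of 17 MGE-derived 2 cells, with 0.257, 155 and 751 CPM. Among Lhx6-line cells it had a count in 1 of 7 MGE-derived 1 cells, with 0, 0 and 0.318 CPM, against 5 of 7 MGE-derived 2 cells, with 0, 154 and 388 CPM. The ranges overlapped in both lines, in the Lhx6 line only at or near 0. The difference was -4.57 over both lines, -4.18 among Htr3a-line cells and -4.59 among Lhx6-line cells, and -4.58 in matched cells. Summed Ing4 was 37.3 CPM in MGE-derived 1 (12.8 CPM without its highest cell, MGE-derived 1 Htr3a line cell 5) and 203 CPM in MGE-derived 2, while the labels other than these held 67.1 to 267 CPM. The highest of these, GABAergic, had 24.6 CPM without its highest cell. Of the 50-base stretches of its exons, 33.5% also lie in the predicted gene Gm44597 on the same strand, so part of its reads could not be assigned to either with certainty.

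Pdha1 (chrX:160122209-160138413, minus strand) encodes the E1 alpha subunit of pyruvate dehydrogenase, which feeds pyruvate into the citric acid cycle. In Htr3a-line cells it had a count in 4 of 11 MGE-derived 1 cells, with 0, 0 and 131 CPM, against 15 of 17 MGE-derived 2 cells, with 0, 86.3 and 692 CPM. In cells of the Lhx6 line it had a count in 4 of 7 MGE-derived 1 cells, with 0, 11.3 and 1080 CPM, against 7 of 7 MGE-derived 2 cells, with 136, 410 and 764 CPM. The ranges overlapped in both lines and the highest cell of all was an MGE-derived 1 cell. The difference was -4.15 over both lines, -4.48 among Htr3a-line cells and -4.34 among Lhx6-line cells, and -4.18 in matched cells. Map3k15, a kinase gene on the opposite strand that overlaps Pdha1, was counted in 7 MGE-derived 1 cells and 22 MGE-derived 2 cells and had a count with Pdha1 in 28 cells, without it in 1. Whether the counting used strand is not given in the sources used here, so the reads of Pdha1 and Map3k15 cannot be told apart where the genes overlap, in 12.9% of the stretches of Pdha1. Likewise 4931422A03Rik, a gene on the opposite strand, had counts in 15 cells, all of which also held Fbxo3, the gene it overlaps in 1.91% of its stretches. It was looked at after the values of Fbxo3 were seen.

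Cyfip1, a subunit of the WAVE complex that controls branched actin, differed less in matched cells. Its lowest, median and highest values in the Htr3a line were 0, 12.4 and 609 CPM in MGE-derived 1 cells and 0, 304 and 905 CPM in MGE-derived 2 cells. In the 14 cells of the Lhx6 line they were 0, 0 and 464 CPM in MGE-derived 1 cells and 0, 434 and 645 CPM in MGE-derived 2 cells. The ranges overlapped in both lines. The difference was -4.02 over both lines and -1.81 in matched cells. By summed counts over both lines it was -1.31.

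The other eight of the 12 lowest genes that met the naming rule lay between -3.88 and -3.56. They were Pdia4 (a disulfide isomerase of the endoplasmic reticulum), Gm29609 (a predicted gene), Garnl3, Mau2 (a loader of cohesin), Tax1bp1 (an autophagy receptor), Bag5 (a co-chaperone of Hsp70), Dimt1 (a methyltransferase of ribosomal RNA) and Sh3rf3. Garnl3 had medians of 2.08 CPM in MGE-derived 1 and 34.6 CPM in MGE-derived 2 in the Htr3a line, and 0 CPM and 152 CPM in the Lhx6 line. Mau2 had medians of 35.0 CPM in MGE-derived 1 and 151 CPM in MGE-derived 2 in the Htr3a line, and 0 CPM and 143 CPM in the Lhx6 line, where its highest MGE-derived 1 cell had 0.164 CPM. Gm29609 shares 82.1% of its stretches with Gtf3c2 and other genes on its strand, and Dimt1 41.5% with Kif2a and other genes on either strand, so their values are uncertain. Of the 12 lowest genes 11 were also called lower in matched cells. All 12 were lower there by at least 1 over both lines together. By summed counts over both lines, the genes from Pdia4 to Sh3rf3 lay between -3.11 (Sh3rf3) and -1.27 (Tax1bp1), with Mau2 at -1.55.

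Among the genes higher in MGE-derived 1 that met the naming rule, those after Fbxo3 differed less over both lines with all cells. Ncald, a neuronal calcium sensor, had a lowest, median and highest value of 0, 91.4 and 1357 CPM in MGE-derived 1 cells of the Htr3a line and 0, 0.562 and 1713 CPM in MGE-derived 2 cells. In Lhx6-line cells it had 0, 618 and 1177 CPM in MGE-derived 1 cells and 0, 0 and 338 CPM in MGE-derived 2 cells. The ranges overlapped in both lines, and the difference was 3.33 over both lines (2.60 and 4.28) and 4.07 in matched cells. Nprl2, a subunit of the GATOR1 complex that restrains mTORC1, differed by 3.19 (2.10 among Htr3a-line cells and 5.06 among Lhx6-line cells). Its medians were 5.86 CPM in MGE-derived 1 and 0 CPM in MGE-derived 2 in the Htr3a line, and 104 CPM and 0 CPM in the Lhx6 line. In matched cells the difference of Nprl2 was 5.26.

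Hdac6, a cytoplasmic deacetylase of tubulin, differed by 3.04, more in the Htr3a line (3.32) than in the Lhx6 line (1.89), a contrast that was not tested. Ipo5, a nuclear import receptor, differed by 2.98 and Rims1, a scaffold of the presynaptic active zone, by 2.50 (1.54 in matched cells). The other six of the 12 highest, Mmp24, Tmpo, Ccdc25, Zfp1, Extl3 and Gaa, lay between 2.30 and 2.90. Of the 12 highest genes 9 were also called higher in matched cells, and all 12 were higher there by at least 1 over both lines together.

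Within a line, few genes separated every cell of the labels. Among Lhx6-line cells 6 genes (0.0582% of genes tested) were higher in each MGE-derived 1 cell than in any MGE-derived 2 cell and 1 (0.00969%), Sox6, was lower. The 6 were Fbxo3, 4931422A03Rik, Ap2m1, Asns, Gna11 and Mydgf, all but Fbxo3 named after their values were seen. As 4931422A03Rik overlaps Fbxo3 and had counts only in cells that held Fbxo3, it may not be a separate member. In the Htr3a line, with more cells, there were 0 (0%) higher and 0 (0%) lower. Across all genes, pairs of cells within a label were about as alike as pairs between the labels among Lhx6-line cells, while among Htr3a-line cells pairs within MGE-derived 2 were the most alike. The median Spearman correlation of pairs of cells in the Lhx6 line was 0.309 within MGE-derived 1, 0.303 within MGE-derived 2 and 0.298 between them, and in the Htr3a line 0.268, 0.327 and 0.295.

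Of 16 tested MGE interneuron genes 8 were called lower in MGE-derived 1 and 0 higher, against 10.7% and 0.814% of all genes. The median difference of the list was -1.57 (all genes -0.57), and -1.51 in matched cells (all genes -0.04). By summed counts it was -0.20, near the -0.17 of all genes. In matched cells it was -0.97 among Htr3a-line cells and -2.70 among Lhx6-line cells. The list holds Sox6 and Satb1 and was chosen with earlier results known, so it is a description. Nxph1, a secreted ligand of alpha-neurexins, had a lowest, median and highest value of 0, 23.5 and 1079 CPM in MGE-derived 1 cells of the Htr3a line and 0, 552 and 3071 CPM in MGE-derived 2 cells. In cells of the Lhx6 line it had 0, 664 and 1708 CPM in MGE-derived 1 cells and 345, 931 and 1230 CPM in MGE-derived 2 cells. The ranges overlapped, and 10 of 18 MGE-derived 1 cells and 23 of 24 MGE-derived 2 cells held a count. Among cells with a count the difference of Nxph1 was 0.29, against -3.40 over all cells. Zeb2, which steers MGE interneurons to the cortex, differed by -3.21 (-1.55 in matched cells), and Mef2c, a transcription factor of maturing interneurons named after its values were seen, by -2.13.

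Sst, the somatostatin gene, gave different signs by different summaries and was also named after its values were seen. It was counted in 13 of 18 MGE-derived 1 cells and 19 of 24 MGE-derived 2 cells. Its mean difference was -0.45 (-0.04 among Htr3a-line cells and -2.17 among Lhx6-line cells), while its summed level was 1160 CPM in MGE-derived 1 and 537 CPM in MGE-derived 2. In the 14 cells of the Lhx6 line its values were 0, 2139 and 6380 CPM in MGE-derived 1 cells and 445, 1022 and 2310 CPM in MGE-derived 2 cells. Thus the highest and the lowest cells of that line were both MGE-derived 1.

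Transmitter genes were unevenly placed. Of 7 genes of GABA synthesis and transport 2 were called lower, Gad2 and Slc38a1, and 0 higher, against 10.7% and 0.814% of all genes. Gad2, a GABA-synthesising enzyme, had a median of 147 CPM in MGE-derived 1 and 415 CPM in MGE-derived 2 in the Htr3a line, and 28.3 CPM and 231 CPM in the Lhx6 line, a difference of -2.42. Gad1, the other such enzyme, differed by 0.81 and did not meet the call. Of 8 Dlx and related fate factors 2 were called lower, among them Dlx2 (-3.19), which is 25% against the 10.7% of all genes. Dlx1 differed by -0.78 among Htr3a-line cells and -3.54 among Lhx6-line cells, and its summed level was 355 CPM in MGE-derived 1 and 293 CPM in MGE-derived 2.

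The median of the caudal ganglionic eminence list had opposite signs in the lines, while its members were mixed. Over its 8 genes it was 0.50 in the Htr3a line (all genes -0.88) and -2.13 in the Lhx6 line (all genes 0.00), and 0 were called in either direction. In Lhx6-line cells Npas1 had a lowest, median and highest value of 0, 0 and 788 CPM in MGE-derived 1 cells and 206, 549 and 1248 CPM in MGE-derived 2 cells. It differed by -6.39 there and by -0.01 in the Htr3a line. Reln, a secreted guidance protein of several interneuron classes, differed by -4.33 in the Lhx6 line and -0.26 in the Htr3a line. This difference between the lines was not tested.

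The families of the leading genes were chosen for those genes, and a leading gene that was called lower raises the share of its family. With Sox6, Ing4 and Pdha1 counted in, 20% to 40% of the members were called lower (all genes 10.7%). Because of that choice these shares are no evidence about the families as a whole. Of 24 SCF ubiquitin ligase genes 1 was called higher, Fbxo3, and 5 lower, with Fbxo31 at -3.07 and Fbxo21 at -2.24 (-0.45 in matched cells). Among the 5, Fbxo28 (-1.59) and Fbxo45 (-1.55), named after their values were seen, changed sign in matched cells (0.13 and 0.68). The list's median was -0.46, and 0.29 in matched cells. Of 5 SoxD and SoxC factors Sox6 alone was called, and Sox11 differed by -1.11 over both lines and -0.57 in the Htr3a line. Of 5 ING genes Ing4 and Ing5 (-2.08) were called lower. Of 10 genes of the pyruvate dehydrogenase complex Pdha1 and Pdhx (-2.45) were called lower, and the list's median was -0.07 in matched cells.

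Among 22 neurexin ligands and partners 3 were called lower (13.6%, near the 10.7% of all genes), Nxph1, Car11 (-2.75) and Nlgn3 (-1.77; -0.38 in matched cells), and 0 higher. The median of the list was -1.13 among Htr3a-line cells (all genes -0.88) and 0.57 among Lhx6-line cells (all genes 0.00). Nlgn3 shares 40.9% of its stretches with other genes. Among 29 splicing regulators 4 were called lower (13.8% against 10.7% of all genes), Celf5 (-3.01), Elavl2 (-2.07), Ptbp1 (-2.03; -0.28 in matched cells) and Elavl4 (-1.82), the last named after its values were seen. The median of the list was -0.97 with all cells, and -0.03 in matched cells, where that of all genes was -0.04.

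In the lists that follow here, the shares called lower, from 0% to 7.69%, were under the 10.7% of all genes. This does not hold for all synaptic lists, as the neurexin ligands and partners had 13.6%. Of 22 presynaptic release genes 2 were called higher (9.09% against 0.814% of all genes), Rims1 and Syn1 (1.37, a synaptic vesicle protein), and 0 lower. Over both lines together, 3 of the 22 were higher by at least 1 with all cells (350 of all 10318 genes). In matched cells 5 of the 22 were (1726 of all genes). Of 30 synaptic adhesion molecules 1 was called higher, Ptprd (1.46; 0.14 in matched cells), and 2 lower, among them Cntnap2 (-1.46). Of 28 migration and guidance genes 2 were called lower, Plxna2 (-2.53; a semaphorin receptor) and Rnd3 (-2.67). Of 14 ionotropic glutamate receptor genes 1 was called lower, Gria1 (-2.24), of 21 voltage-gated channel genes 1, Kcnq3 (-2.26), and of 13 immediate early and heat shock genes 1, Egr1 (-2.05). None of 12 GABA-A receptor and chloride transporter genes, and none of 20 nuclear genes of the respiratory chain, was called.

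**Figure D5:**
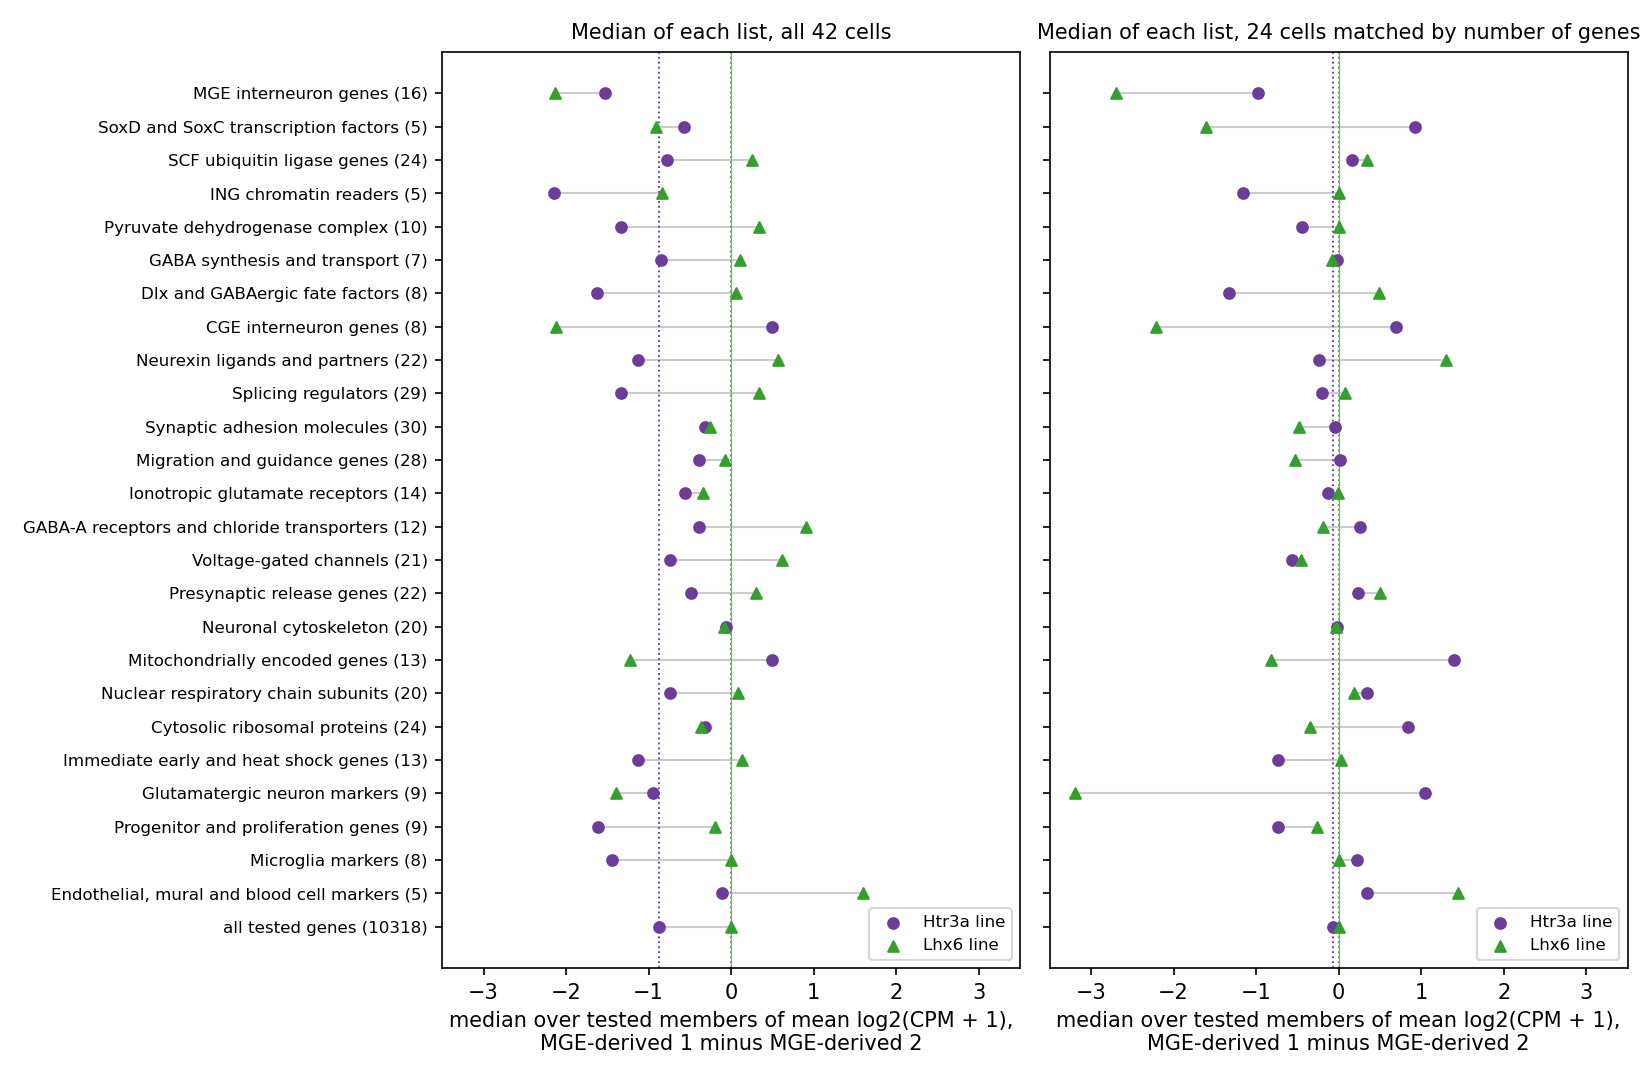
Median difference (MGE-derived 1 minus MGE-derived 2) over the tested members of each gene list in the Htr3a line (circles) and the Lhx6 line (triangles), with all 42 cells (left) and the 24 matched cells (right); member numbers are in brackets and vertical lines mark the median of all 10318 genes in each line. MGE interneuron genes lie left of both lines' medians in both panels, at -1.53 and -2.14 with all cells.

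Markers of other cells were read beside these groups, and their part in the results was not tested. Of 8 tested microglia genes 6 were lower by at least 1 among Htr3a-line cells (45% of all genes), with a median of -1.45. Among Lhx6-line cells 0 were lower and 1 was higher by at least 1, with a median of 0.00. A call needs the same direction in both lines, and 0 of the 8 were called. Of 9 glutamatergic neuron genes 3 were called lower, Cux1, Sla and Lmo3, which is 33.3% against the 10.7% of all genes. The list's median was -0.94 among Htr3a-line cells (all genes -0.88) and -1.40 among Lhx6-line cells (all genes 0.00), and in matched cells 1.05 and -3.19. At least 3 of 5 defining glutamatergic markers at 10 or more counts were held by 0 of 18 MGE-derived 1 cells and 4 of 24 MGE-derived 2 cells, 2 in each line. Among Lhx6-line cells the highest sum of these 5 markers was 906 CPM in MGE-derived 1 cells and 2492 CPM in MGE-derived 2 cells, and 4 and 1 of the 5 were at 0. Cells with at least 10 counts of Y-linked genes numbered 1 of 11 MGE-derived 1 cells and 6 of 17 MGE-derived 2 cells in the Htr3a line, and 6 of 7 and 5 of 7 in the Lhx6 line.

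The 2 cells of these labels that failed quality control, both of the Lhx6 line, were left out. The MGE-derived 1 cell held 9090 counts of Fbxo3 and 0 of Sox6 among 1927 genes, and the MGE-derived 2 cell 0 counts of Fbxo3 and 590 of Sox6 among 2740 genes.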

How the data were processed

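The deposited counts are whole numbers of reads for each gene in each cell, in tables by Ensembl identifier and by symbol. The authors also deposited a normalized signal table, and 99.8% of its values were within 0.1% of counts divided by a factor for the cell. Trimmomatic, STAR, featureCounts and GRCm38 are named in the submitters' processing notes, with no versions given in the sources used here. Groups were taken from the labels for cell type, Cre line and quality control. Of 22880 rows, 22647 received a symbol from GENCODE M21. Genes with a count in at least 25% of the cells of either label were tested (10318), with a pseudocount of 1, in Python 3.11.15 with pandas 2.3.3 and scipy 1.17.1; edgeR 4.0.16 gave TMM factors only. The steps were tested on simulated data only for the sign of large set changes, which does not test the number of genes called.

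Named genes were Sox6, Fbxo3, Satb1, Lhx6, Htr3a, Nrxn2 and Nrxn3. In each direction came the 12 called genes of largest difference with a count in at least 50% of cells, at least 20 CPM and a ratio of at least 2 both in summed counts and in mean CPM, also without the highest cell. Up to 4 genes per list were added. Members and the 29 lists were chosen with earlier results of these data known. Some genes are not reported here. Alternatives covered the pseudocount, scaling, summing, matching, thinning, filters, driver lines, cells left out and the count table. The table by symbol was held in part (9724 rows). Cells far from their group were found by Dixon's criterion in groups of 7.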

Additional observations from a re-analysis of the deposited data

Results flagged for a closer look

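Within the 7 cells of each label in the Lhx6 line, a single cell far from the others by Dixon's 95% critical value was sought for the named genes. Chance marks about 1 in 20 groups, and 30 of 126 were marked, many where most cells had no count. Values are log2(CPM + 1).

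In MGE-derived 1, a lone cell had no count where the others had one for Ncald (cell 3, value 0, the nearest other 7.61), Nprl2 (cell 4, 0 against 6.36), Ipo5 (cell 3, 0 against 6.16), Tmpo (cell 2, 0 against 5.41) and Mef2c (cell 3, 0 against 6.43). A lone cell was high for Gm29609 (cell 1, 8.58), Fbxo31 (cell 3, 8.20), Ing5 (cell 5, 6.22), Slc38a1 (cell 5, 8.001), Car11 (cell 6, 6.68), Cntnap2 (cell 4, 6.67), Sla (cell 7, 7.36 against 1.32) and Kcnq3 (cell 6, 4.46). At low levels, a lone cell stood out for Ing4 (cell 7, 0.40), Mau2 (cell 3, 0.22), Bag5 (cell 5, 0.59) and Sh3rf3 (cell 7, 1.04 against 0.22).

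In MGE-derived 2, a lone cell was high for Nrxn2 (cell 7, 9.23 against 2.84), Nprl2 (cell 1, 7.49), Ipo5 (cell 4, 8.78), Ptprd (cell 7, 8.54) and, at low levels, Zfp1 (cell 7, 2.66) and Fbxo3 (cell 4, 0.29). A lone cell was low for Nrxn3 (cell 1, 1.03 against 7.48), Cyfip1 (cell 3, 0 against 5.98), Garnl3 (cell 1, 0 against 5.41), Sox11 (cell 3, 7.57 against 9.45), Dlx1 (cell 3, 0 against 7.51), Lmo3 (cell 5, 0 against 5.32) and Rnd3 (cell 7, 0.57 against 8.42).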

How the results depend on the processing

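Alternatives were followed for Sox6, Fbxo3, Satb1, Lhx6, Htr3a, Nrxn2, Nrxn3, the highest and lowest genes of the naming rule, and list medians. Over both lines, no called gene among these, and no list median of at least 1 in size, reversed its direction. Some other called genes did reverse. Lmo3 differed by -1.34, but its summed level was 221 CPM in MGE-derived 1 and 181 CPM in MGE-derived 2. Fbxo28 and Fbxo45, both called lower, differed by 0.13 and 0.68 in matched cells. Within a line, Mmp24 lost its call without cells holding glutamatergic markers, with -0.29 among Lhx6-line cells (1.63 with all cells). The genes called higher numbered 84 with all cells, 26 with a pseudocount of 10 (267 lower), 466 with summed counts, 135 with the authors' normalized values (83 by CPM over the same genes), 672 in matched cells, 778 in cells between the 25th and 75th percentile of gene number (9 MGE-derived 1 and 11 MGE-derived 2 cells), 211 without cells holding microglia markers, and 804 in matched cells without them, a setting chosen after seeing the data. The median difference over all genes, -0.57, was -0.23 with a pseudocount of 10, -0.17 with summed counts, -0.036 in matched cells, -0.037 in the percentile window, -0.015 in matched cells without microglia markers, -0.88 in the Htr3a line, 0.00 in the Lhx6 line and -0.19 with no filter. The Sox6 difference was -3.10 with a pseudocount of 10 and -2.20 with summed counts, and that of Fbxo3 was 8.36 in the Lhx6 line. For list medians and the genes followed other than Sox6, Fbxo3 and Satb1, 749 values under an alternative stayed within 1 SD and 29 moved further. The SD was between cells for a gene and between members for a list. It was wide (for Cyfip1, 3.84 over MGE-derived 1 cells), so a value within it could still differ much. For the leading results, Sox6, Fbxo3 and Satb1 among them, 103 values were marked as the same and 19 as moved. Signs of small differences could change, as for Nrxn2 (0.30 with summed counts). The cause of these changes was not tested, apart from the summed Sox6, which rests on MGE-derived 1 Htr3a line cell 4. No paired analysis was possible because replicate numbers only name cells.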
